A study of Arabidopsis thaliana with 7 samples.

Results

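The 38 Arabidopsis genes described here encode cytosolic proteins of the 40S ribosomal subunit, families Sa and S2 to S14, out of 27655 genes in the count tables. They were taken from a fixed list of loci, by name and not by any measured value. The list itself was chosen with earlier results of these data known. They form 15 families of paralogs: 8 proteins have 2 genes on the list, 6 have 3 genes, and S2 has 4. Transcript levels came from RNA sequencing of poly(A)-selected RNA from whole 18-day-old seedlings, grown at 23°C with 16 h light and 8 h dark. Each library started from 4 µg of DNase-treated total RNA. The genotypes were wild type (WT, Col-0; 2 libraries), hot3-2 (3 libraries) and hot3-3 (2 libraries). Both mutants carry a T-DNA insertion in HOT3 (AT1G76810), which encodes the translation initiation factor eIF5B1, and each allele is a single insertion line. The experiment asked which transcripts change when HOT3 is disrupted, and the same WT libraries served as the control for both alleles.

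The small ribosomal subunit is built from 18S rRNA and its set of proteins, each of which normally enters a subunit as a single copy. Plants keep several expressed genes for most of these proteins, so the supply of 1 protein is the sum over its paralogs. eIF5B acts at the last step of initiation, when the 60S subunit joins the 40S subunit, and in yeast it also takes part in a test of newly made 40S subunits. Many plant ribosomal protein genes carry 2 short promoter motifs, the telobox and site II, which are known from dividing and growing tissue.

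The libraries held 14090881 to 34696683 counted read pairs. HOT3 itself was at 173 and 170.4 CPM (the count scaled to a library total of 1000000) in WT, with 74.8, 96.7 and 90.4 CPM for hot3-2 and 202 and 274 CPM for hot3-3. In the libraries labelled hot3-3 the count over the whole HOT3 gene was therefore not lower than in WT, and it does not check that label. Nothing in the labels says whether replicates came from separate cultures, so p-values measure only the spread between these libraries. Photosynthesis genes used as leaf markers (3 genes) summed to 33801 and 35637 CPM in WT and to 23124 to 24791 CPM in the 5 mutant libraries, and 3 root markers to 1294 and 1373 CPM in WT and 1959 to 2430 CPM in the mutants. None of these markers was at 0. For 10 genes of dividing cells the limits were an adjusted p below 0.01 (edgeR) and a log2 fold change of at least 1. With both limits 1 gene was higher in each allele and none lower. Of all 20795 tested genes 7.8% were called higher in hot3-2 and 9.63% in hot3-3, and 3.88% and 4.91% lower. By adjusted p alone 2 were higher in each allele, and 2 were lower in hot3-3 and 0 in hot3-2. The 10 genes had median log2 fold changes of 0.09 in hot3-2 and −0.08 in hot3-3. The part of tissue makeup in the results below was not tested, and in whole seedlings more cells of a type and more RNA per cell cannot be told apart.

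Each of the 37 Sa to S14 genes with counts was at least 1.78 times as abundant in every mutant library as in either WT library. Together they took 0.815% and 0.693% of all counts in the WT libraries, against 1.85%, 1.73% and 1.79% in those of hot3-2 and 1.91% in each of hot3-3. Of the 38 genes, 37 had enough counts to be tested. In hot3-2 all 37 were higher than in WT and none was lower, at an adjusted p below 0.01 and a log2 fold change of at least 1 (edgeR quasi-likelihood test, adjusted over all 20795 tested genes), whereas 7.8% of all tested genes were called higher. In hot3-3, 36 of 37 were called higher and none lower, where 9.63% of all tested genes were called higher. Their log2 fold changes had a median of 1.3 for hot3-2 (range 1.01 to 2.73) and of 1.35 for hot3-3 (range 0.97 to 3.44), beside medians of 0.0013 and 0.011 over all tested genes. Every mutant library lay above both WT libraries for all 37 genes, a separation that 28.4% of tested genes showed. The narrowest separation was that of AT3G02560.

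**Figure D1:**
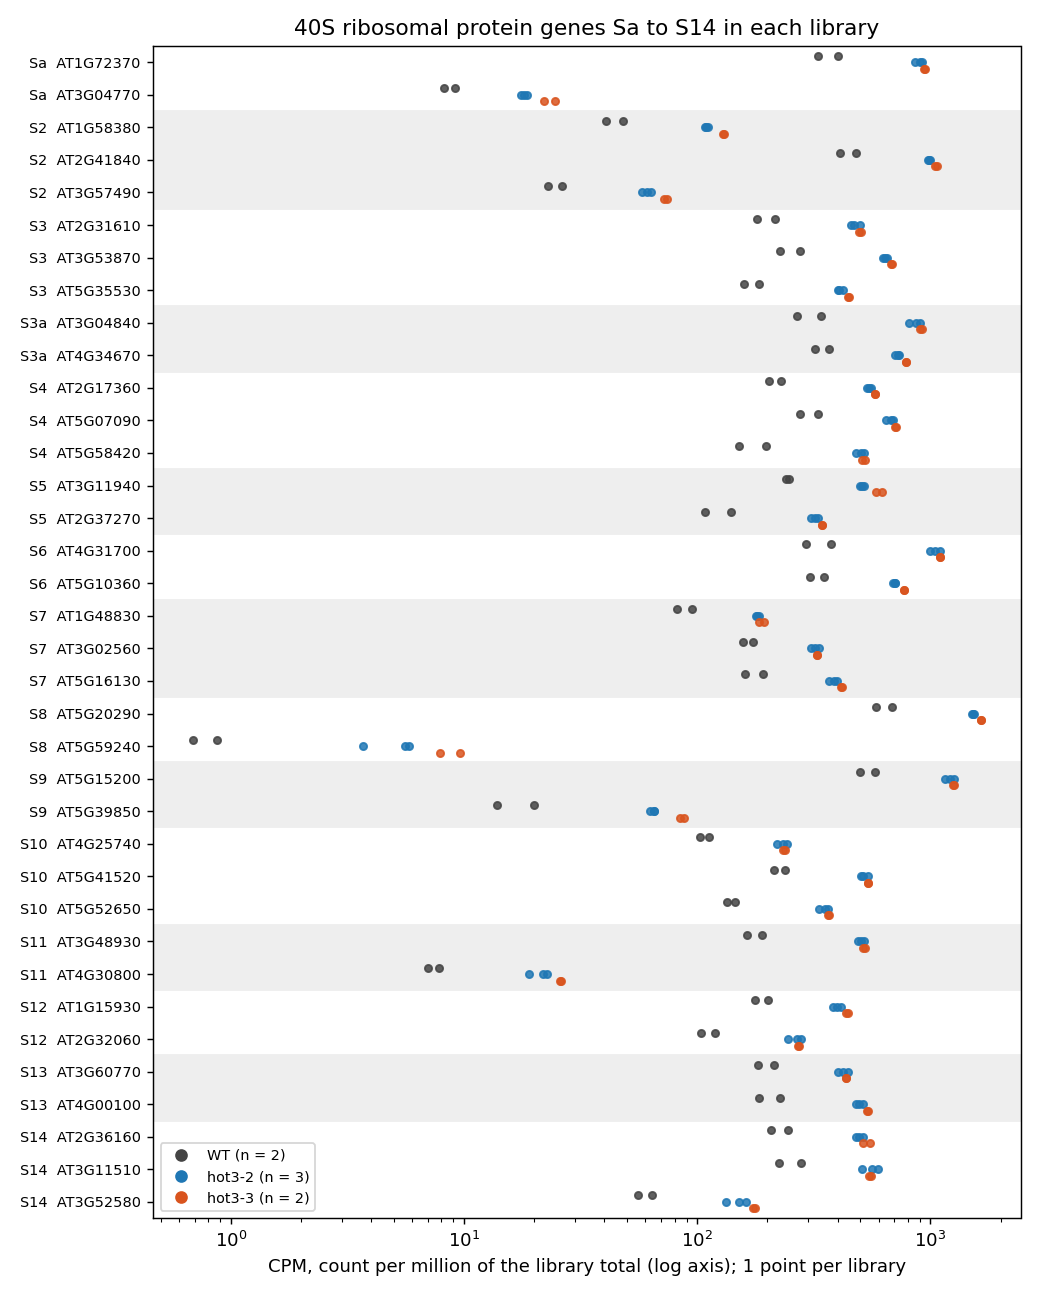
CPM (log axis) of 36 of the 37 genes with counts, 1 point for each library, with WT in grey, hot3-2 in blue and hot3-3 in orange, and shaded bands separating families. For each gene all 5 mutant points lie to the right of both WT points, and the levels of paralogs range from under 1 CPM in WT for AT5G59240 to over 500 CPM in both WT libraries for AT5G20290.

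**Figure D2:**
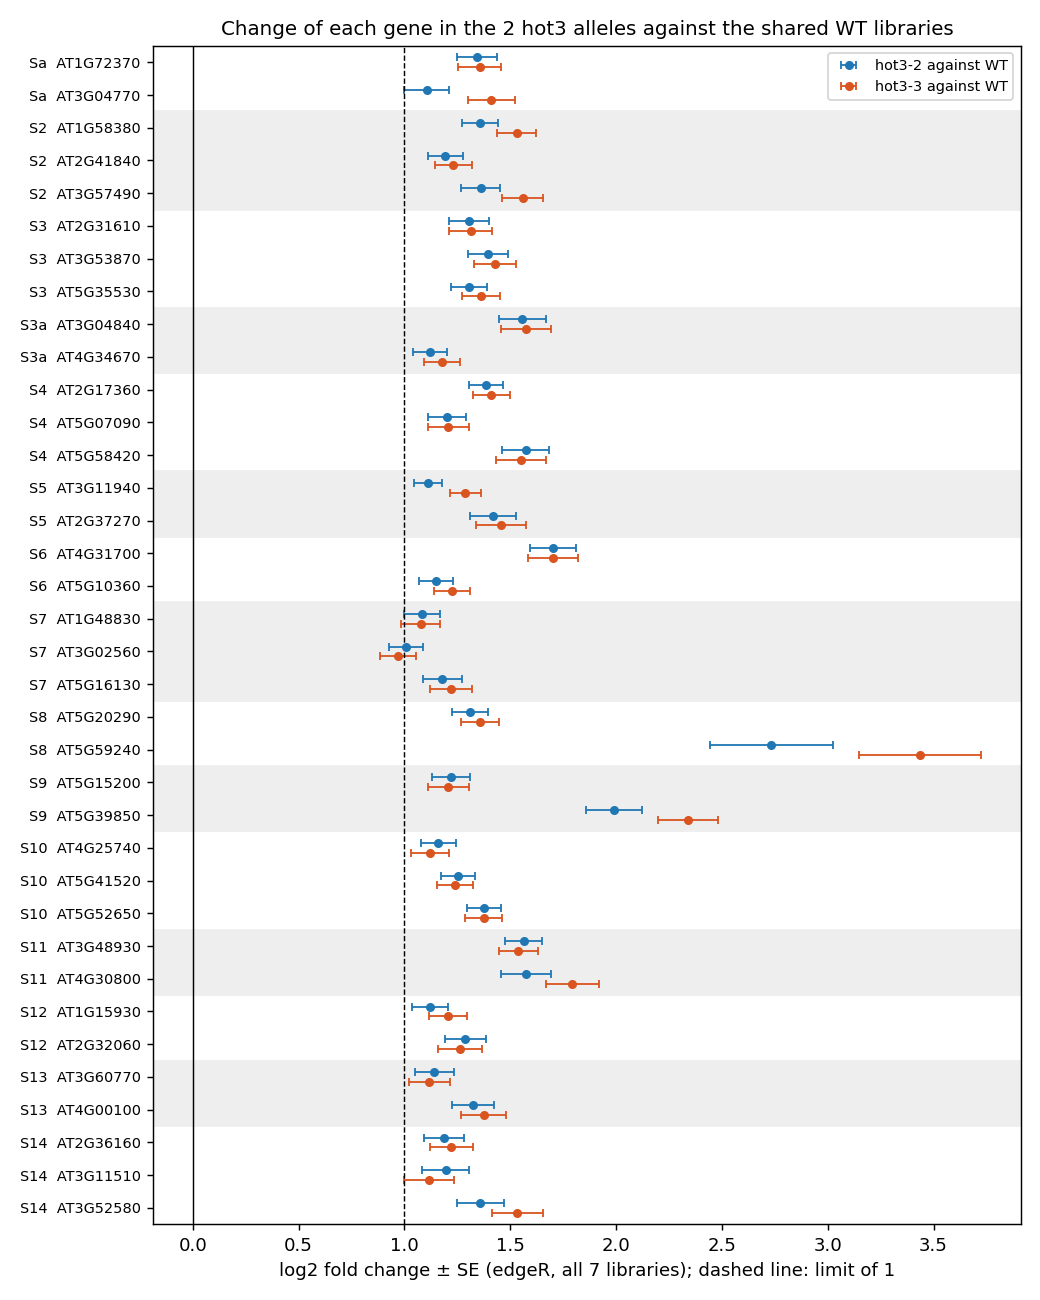
Log2 fold change of 36 of the 37 tested genes with the standard error in hot3-2 (blue) and hot3-3 (orange) against the shared WT libraries, where the dashed line marks the limit of 1. All but 1 of the points lie at or beyond 1, the exception being AT3G02560 in hot3-3 at 0.97, and the largest values belong to AT5G59240 and AT5G39850.

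The WT libraries themselves differed for these genes. In 36 of 37 the first WT library was the higher, with a median ratio to the second of 1.17 (from 0.787 to 1.44), where the median over all tested genes was 1.01. Without WT replicate 2 the number called higher was 33 in hot3-2 and 33 in hot3-3, and the medians were 1.16 and 1.21. The calls lost in hot3-2 were AT3G04770, AT4G34670, AT1G48830 and AT3G02560, at log2 fold changes from 0.91 to 0.9995, and those lost in hot3-3 were AT1G48830, AT3G60770 and AT3G11510, at 0.95 to 0.99.

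The remaining 40S genes of the list, families S15 to S30 and RACK1, were counted in the same way. Of 59 listed genes 54 were tested, and 47 were called higher in hot3-2 and 48 in hot3-3, with none lower. Their median log2 fold changes were 1.37 in both alleles. No test of the difference between the lists was made.

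Promoter sequences of 3 pairs of paralogs are shown first. Each pair sets the most abundant copy of a protein beside the copy with the largest relative change. Other families hold such pairs too, which are not printed. Each printed sequence is the stretch of 150 bases that ends just before the annotated start of the gene (TAIR10.1, RefSeq annotation). It runs 5′ to 3′ on the strand of the gene. Capitals mark the telobox (AAACCCTA, or TAGGGTTT on the other strand) and site II (TGGGCC or TGGGCT, or GGCCCA and AGCCCA on the other strand). The S8 pair is AT5G20290 (chr5:6853107-6853256, minus strand) and AT5G59240 (chr5:23903768-23903917, minus strand), the S9 pair AT5G15200 (chr5:4936430-4936579, minus strand) and AT5G39850 (chr5:15949760-15949909, plus strand), and the S11 pair AT3G48930 (chr3:18142282-18142431, minus strand) and AT4G30800 (chr4:15000810-15000959, plus strand).
S8 AT5G20290: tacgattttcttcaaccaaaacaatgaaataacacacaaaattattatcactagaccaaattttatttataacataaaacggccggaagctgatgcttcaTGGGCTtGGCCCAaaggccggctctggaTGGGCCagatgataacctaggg
S8 AT5G59240: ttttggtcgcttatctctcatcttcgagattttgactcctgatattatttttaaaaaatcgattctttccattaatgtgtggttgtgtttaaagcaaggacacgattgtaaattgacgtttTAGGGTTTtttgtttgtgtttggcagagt
S9 AT5G15200: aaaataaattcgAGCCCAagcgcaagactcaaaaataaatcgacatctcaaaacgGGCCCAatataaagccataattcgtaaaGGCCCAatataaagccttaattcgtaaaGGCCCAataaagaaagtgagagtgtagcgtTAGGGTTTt
S9 AT5G39850: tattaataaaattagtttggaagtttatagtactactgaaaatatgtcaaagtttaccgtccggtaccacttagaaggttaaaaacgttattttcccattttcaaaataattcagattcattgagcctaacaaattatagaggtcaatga
S11 AT3G48930: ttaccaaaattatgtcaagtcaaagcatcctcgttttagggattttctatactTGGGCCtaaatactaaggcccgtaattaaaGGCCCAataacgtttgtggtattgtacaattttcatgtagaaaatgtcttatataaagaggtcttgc
S11 AT4G30800: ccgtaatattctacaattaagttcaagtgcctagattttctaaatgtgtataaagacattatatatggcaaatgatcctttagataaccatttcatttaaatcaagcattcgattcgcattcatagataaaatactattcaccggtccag

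The abundant copies held 3, 4 and 2 site II matches in these stretches, and the low copies held none. This contrast belongs to the chosen pairs and stretches. In stretches of the same length, the corresponding pairs of S2, S5 and S10 also had site II only in the abundant copy. Those of S3a, S4 and S12 had it in both copies, and in S14 only the less abundant copy AT3G52580 had it. With the first 50 bases after the start included, the low copy AT5G39850 held 2 site II matches and 3 of the 6 genes below 50 CPM in WT held at least 1, while the abundant copies AT1G72370, AT4G00100 and AT3G11510 held none. A telobox lay in the stretch of AT5G15200 and in that of AT5G59240, where it was the only match of either kind. Over a window from 250 bases before to 50 bases after the start, 29 of the 38 genes held a site II match (76.3%) and 20 held a telobox (52.6%), beside 21.7% and 6.22% of 27438 protein-coding genes. Both motifs were found in 17 of the 38 (44.7%, against 2.2% of all) and neither in 6. When motifs overlapped, each match was counted. Of the 59 other 40S genes (S15 to S30 and RACK1), 62.7% held a site II match and 44.1% a telobox in the same window. In the upstream 250 bases alone the numbers for the 38 genes were 26 and 8, beside 19.2% and 4.49% of all protein-coding genes. The telobox number fell because 12 genes had their teloboxes only after the start or reaching across it.

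In hot3-2 all tested genes rose, whether their promoter held a motif or not. The 9 tested genes without a site II match had median log2 fold changes of 1.34 in hot3-2 and 1.37 in hot3-3, and the 28 with one had 1.29 and 1.27. For the telobox, the 18 tested genes without it had medians of 1.36 and 1.42, and the 19 with it 1.19 and 1.22. The groups also differed in level. The median CPM in WT was 226 with a telobox and 156 without, and 198 with a site II match and 124 without. The part of level in these medians was not tested. The ranges overlapped in each case, and a match is a description of the letters, not of binding.

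**Figure D3:**
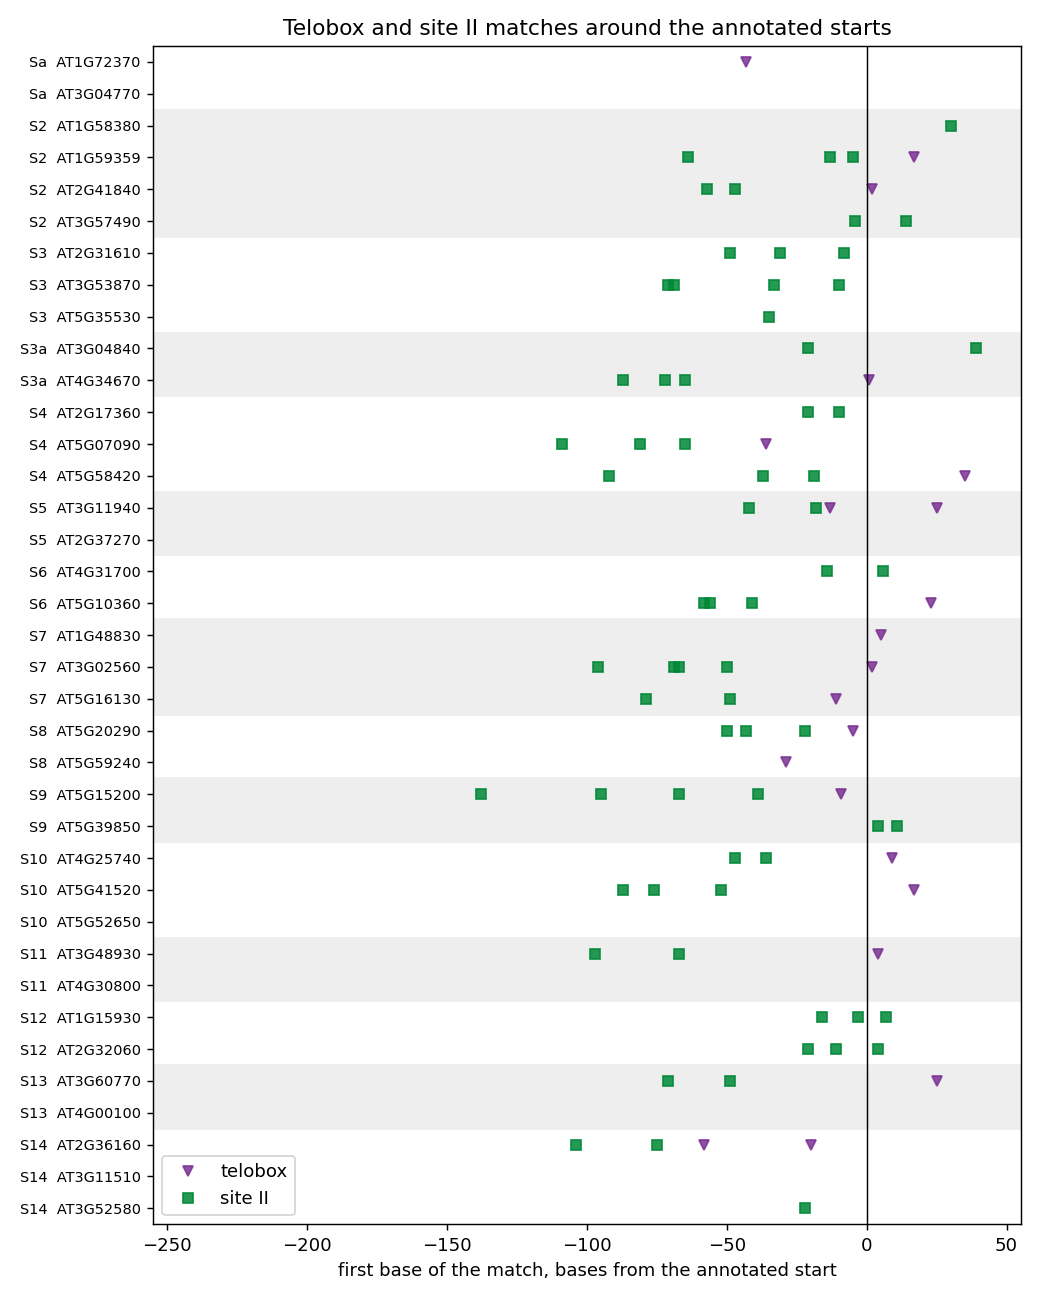
Position of telobox (triangles) and site II (squares) matches on either strand around the annotated start of 37 of the 38 genes, in bases from the start. Site II matches lie within the 138 bases before the start or in the first bases after it, teloboxes cluster at the start, and AT3G04770, AT2G37270, AT5G52650, AT4G30800, AT4G00100 and AT3G11510 show no match.

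Sa is the small-subunit protein related to the mammalian laminin receptor precursor. Of its 2 genes, AT1G72370 (P40) carried nearly all counts. It was at 400.1 and 330.0 CPM in WT, compared with 923, 862 and 900.0 CPM in hot3-2 and 950.1 and 938 CPM in hot3-3. It rose by log2 1.34 ± 0.09 (SE) in hot3-2 and 1.35 ± 0.10 in hot3-3. The second gene, AT3G04770 (RPSAb), stayed between 8.24 and 9.18 CPM in WT and reached 17.5 to 24.6 CPM in the mutants. Its changes on the log2 scale were 1.10 and 1.41. The 2 Sa proteins are the most diverged pair of the set, with 59.4% of residues identical in a global alignment.

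S2, S3 and S9 line the channel through which mRNA enters the subunit. S2 has 4 genes on the list, of which AT2G41840 gave most counts. It was at 479.7 and 410.4 CPM in wild type, and the mutants gave 992, 972 and 987 CPM (hot3-2) and 1050.1 and 1062 CPM (hot3-3). The S2 gene with the largest log2 fold change, AT3G57490, was at 26.2 and 22.8 CPM in the WT libraries, at 63.2, 58.3 and 60.8 in those of hot3-2 and at 71.7 and 74 in those of hot3-3. It rose by log2 1.36 ± 0.09 in hot3-2 and 1.56 ± 0.10 in hot3-3, beside 1.19 ± 0.08 and 1.23 ± 0.09 for AT2G41840. In both genes all mutant libraries lay above WT. By CPM both hot3-3 libraries lay above the 3 hot3-2 libraries, as they did for 29.9% of all tested genes. With CPM divided by the TMM scaling factors this held for AT3G57490 but not for AT2G41840. The fitted difference between the alleles for AT2G41840 was log2 0.04 ± 0.08. The S2 gene AT1G58380 (XW6) went from 48.0 and 40.6 CPM in WT to between 107.8 and 130 CPM in the mutants.

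The fourth listed S2 gene, AT1G59359, was at 0 counts in all 7 libraries and could not be tested. Every window of 150 bases in its transcript (1139 of 1139) also occurs in transcripts of other genes. Those are AT1G58684 and AT1G58983, whose coding sequences are identical to its own and which were also at 0, and in part AT1G58380. Because only uniquely mapped pairs were counted, a count of 0 here gives no upper limit on expression. The S2 sums and shares given below leave out any transcripts of these copies that could not be mapped uniquely. AT1G58380 differs from AT1G59359 at 21 of 855 coding bases, and 18 of its 1091 windows are shared. The other 36 genes share no window of that length with any other gene.

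All 3 S3 genes rose in both alleles. The most abundant, AT3G53870, also had the largest log2 fold change of the S3 genes, 1.39 ± 0.09 in hot3-2 and 1.43 ± 0.10 in hot3-3. It was at 276 and 226 CPM in WT, compared with 649.8, 625 and 638 CPM in hot3-2 and 679.8 and 685 CPM in hot3-3. AT2G31610 and AT5G35530 had log2 fold changes between 1.3 and 1.36. For S9, AT5G15200 was at 579 and 497 CPM in wild type, and the mutants gave 1266, 1151 and 1217 CPM (hot3-2) and 1253 and 1257 CPM (hot3-3). Its paralog AT5G39850 was a minor copy, at 19.9 and 13.9 CPM in the WT libraries, at 65.6, 65.3 and 62.6 in those of hot3-2 and at 87.6 and 84.3 in those of hot3-3. It rose 3.97-fold in hot3-2 (log2 1.99 ± 0.13) and by log2 2.34 ± 0.14 in hot3-3, against 1.22 ± 0.09 and 1.21 ± 0.10 for AT5G15200. Every mutant library was at least 3.14 times the highest WT library, and the alleles did not overlap each other.

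S3a, S5 and S14 lie on the platform and at the exit side of the mRNA channel. In S3a the 2 paralogs changed places. AT4G34670 was the higher copy without the mutation, at 366 and 321 CPM in WT, compared with 735, 702 and 729 CPM in hot3-2 and 783 and 789.6 CPM in hot3-3. AT3G04840 was at 339 and 267 CPM in wild type, and the mutants gave 904, 811 and 867 CPM (hot3-2) and 906 and 919 CPM (hot3-3). Its changes on the log2 scale were 1.56 ± 0.11 and 1.58 ± 0.12, beside 1.12 ± 0.08 and 1.18 ± 0.09 for AT4G34670. In S5, AT3G11940 (RPS5A), known as a gene of dividing cells, was at 248 and 239 CPM in the WT libraries, at 498, 521 and 509.9 in those of hot3-2 and at 622 and 582 in those of hot3-3. AT2G37270 (RPS5B) was at 139.7 and 108 CPM in WT, compared with 331, 307 and 321 CPM in hot3-2 and 343 and 343 CPM in hot3-3. The log2 fold changes were 1.11 ± 0.07 and 1.29 ± 0.07 for RPS5A and 1.42 ± 0.11 and 1.46 ± 0.12 for RPS5B, and all 3 hot3-2 libraries of RPS5A lay below both hot3-3 libraries.

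S14 sits near the 3′ end of 18S rRNA. Its most abundant gene in WT, AT3G11510, was at 278 and 225 CPM in wild type, and the mutants gave 595, 508 and 565 CPM (hot3-2) and 555 and 545 CPM (hot3-3). The least abundant, AT3G52580, was at 64.1 and 55.9 CPM in the WT libraries, at 162, 132 and 151 in those of hot3-2 and at 174 and 177 in those of hot3-3. It had the largest log2 fold changes of the S14 genes, 1.36 ± 0.11 and 1.53 ± 0.12, beside 1.20 ± 0.11 and 1.11 ± 0.12 for AT3G11510. AT2G36160 was at 245 and 207 CPM in WT and 480 to 549 CPM in the mutants.

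S4, S7, S8 and S11 belong mainly to the body of the subunit. In S4, AT5G07090 was the most abundant, at 328 and 277 CPM in WT, compared with 691, 645 and 678 CPM in hot3-2 and 711 and 702 CPM in hot3-3. AT5G58420 was at 197 and 152 CPM in wild type, and the mutants gave 519, 478 and 504 CPM (hot3-2) and 524 and 508 CPM (hot3-3). It rose by log2 1.57 ± 0.11 and 1.55 ± 0.12, against 1.20 ± 0.09 and 1.21 ± 0.10 for AT5G07090. The remaining S4 gene, AT2G17360, had 1.39 and 1.41. The lowest mutant library was 1.97 to 2.43 times the highest WT library over the 3 genes.

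Summed over its genes, S7 had the smallest change of the families, though not each S7 gene was among the least changed. AT5G16130 was at 192 and 160.4 CPM in the WT libraries, at 398, 369 and 387 in those of hot3-2 and at 412 and 416 in those of hot3-3. AT3G02560 was the 1 gene called in a single allele, at 173 and 157 CPM in WT, compared with 334, 309 and 319.7 CPM in hot3-2 and 327 and 326 CPM in hot3-3. Its log2 fold change was 1.01 ± 0.08 in hot3-2 (adjusted p = 1.42e-05) and 0.97 ± 0.09 in hot3-3 (adjusted p = 2.11e-05, edgeR quasi-likelihood test), just on either side of the fold limit, and the difference between the alleles was −0.04 ± 0.08. Its call in hot3-2 was also lost with RLE size factors (0.99), with library totals alone (0.96), in DESeq2 (0.99), with only the compared genotypes (0.99) and without hot3-2 replicate 1 (0.94), and in hot3-3 it was called without WT replicate 1 (1.03). All 3 S7 genes overlap a neighbour on the other strand by 40 to 72 annotated bases, and no source used here gives the strand setting of the count. Over the whole set 10 of the 38 genes overlap a neighbour, by at most 133 bases.

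S8 showed the widest gap between its copies. AT5G20290 was the most abundant gene of the whole set, at 685 and 586 CPM in wild type, and the mutants gave 1541, 1504 and 1525 CPM (hot3-2) and 1649.5 and 1642 CPM (hot3-3). Its paralog AT5G59240 was barely detected without the mutation, at 0.687 and 0.873 CPM in the WT libraries, at 5.59, 3.69 and 5.81 in those of hot3-2 and at 9.57 and 7.93 in those of hot3-3. Those values rest on 11 and 18 counts in WT, on 135, 52 and 114 for hot3-2 and on 192 and 275 for hot3-3. It had the largest fold changes of the set, log2 2.73 ± 0.29 in hot3-2 (adjusted p = 6.89e-05) and 3.44 ± 0.29 in hot3-3 (adjusted p = 1.55e-05, edgeR). For AT5G20290 they were 1.31 ± 0.08 and 1.36 ± 0.09. The low copy nevertheless stayed under 1% of S8 counts per length in every library.

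In S11, AT3G48930 (EMB1080) was at 189.5 and 164 CPM in WT, compared with 519.6, 489 and 504 CPM in hot3-2 and 522 and 515 CPM in hot3-3. Its changes on the log2 scale were 1.56 ± 0.09 and 1.54 ± 0.09. The minor copy AT4G30800 was at 7.81 and 6.98 CPM in wild type, and the mutants gave 22.7, 19 and 21.8 CPM (hot3-2) and 25.7 and 25.9 CPM (hot3-3). It rose by 1.58 ± 0.12 and 1.79 ± 0.12 on the log2 scale.

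S6 is the subunit protein that is phosphorylated downstream of the TOR kinase. Its genes AT4G31700 (RPS6A) and AT5G10360 (RPS6B, EMB3010) were close to each other in WT and apart in the mutants. RPS6A was at 373 and 294 CPM in the WT libraries, at 1103, 999 and 1045 in those of hot3-2 and at 1095 and 1099.7 in those of hot3-3. RPS6B was at 349 and 304 CPM in WT, compared with 707, 692 and 702 CPM in hot3-2 and 771 and 774 CPM in hot3-3. RPS6A rose by log2 1.70 ± 0.11 in hot3-2 and 1.70 ± 0.12 in hot3-3, the largest change among genes above 50 CPM in WT. RPS6B rose by 1.15 ± 0.08 and 1.23 ± 0.09.

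S10 and S12 lie in the head and beak. AT5G41520 (RPS10B) was at 238 and 214 CPM in wild type, and the mutants gave 541, 505 and 515 CPM (hot3-2) and 538 and 541 CPM (hot3-3). AT5G52650 had the largest log2 fold change of the S10 genes, 1.37 ± 0.08 and 1.37 ± 0.09, at 145 and 135 CPM in the WT libraries, at 365, 333 and 352 in those of hot3-2 and at 365 and 367 in those of hot3-3. AT4G25740 was at 113 and 102 CPM in WT and 220.2 to 243 CPM in the mutants. In S12, AT1G15930 was at 201 and 177 CPM in WT, compared with 413, 382 and 397 CPM in hot3-2 and 436 and 445 CPM in hot3-3. AT2G32060 was at 119.7 and 104 CPM in wild type, and the mutants gave 279.9, 244 and 268 CPM (hot3-2) and 273 and 270.1 CPM (hot3-3). The log2 fold changes were 1.12 ± 0.09 and 1.21 ± 0.09 for AT1G15930 and 1.29 ± 0.10 and 1.26 ± 0.10 for AT2G32060.

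S13, the protein whose gene AT4G00100 is known for the pointed first leaves of its mutant, has 2 copies of nearly equal level. AT4G00100 was at 227 and 183 CPM in the WT libraries, at 515, 480.0 and 494 in those of hot3-2 and at 540.0 and 536 in those of hot3-3. It rose by log2 1.32 ± 0.10 and 1.37 ± 0.11. AT3G60770, whose product differs from it at a single residue of 151, had 1.14 ± 0.09 and 1.12 ± 0.10.

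Summed over paralogs, the transcripts of all 15 families were called higher in both alleles (family sums put in place of the genes, edgeR). Of the rows of that table, 7.7% were called higher in hot3-2 and 9.53% in hot3-3. Protein amounts were not measured. The family sums rose within a narrow band. The lowest log2 fold change was that of S7, 1.09 ± 0.08 in hot3-2 and 1.10 ± 0.09 in hot3-3 (both 2.14-fold). The highest was that of S6, 1.45 ± 0.09 and 1.49 ± 0.10 (2.74-fold and 2.8-fold). S7 was the 1 family not called without WT replicate 2, at 0.97 and 0.98.

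Transcript levels were compared between families per kilobase of the deposited gene length. In WT the summed level ranged from 263 CPM per kb for S12 to 623 for S14, a ratio of 2.37. In hot3-2 it ranged from 576 for S12 to 1476 for S6, and in hot3-3 from 621 for S12 to 1578 for S6. The coefficient of variation over the 15 proteins was 25% in WT, 27.7% in hot3-2 and 27.4% in hot3-3. By this measure S12, Sa and S5 were the 3 least abundant in each genotype.

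**Figure D4:**
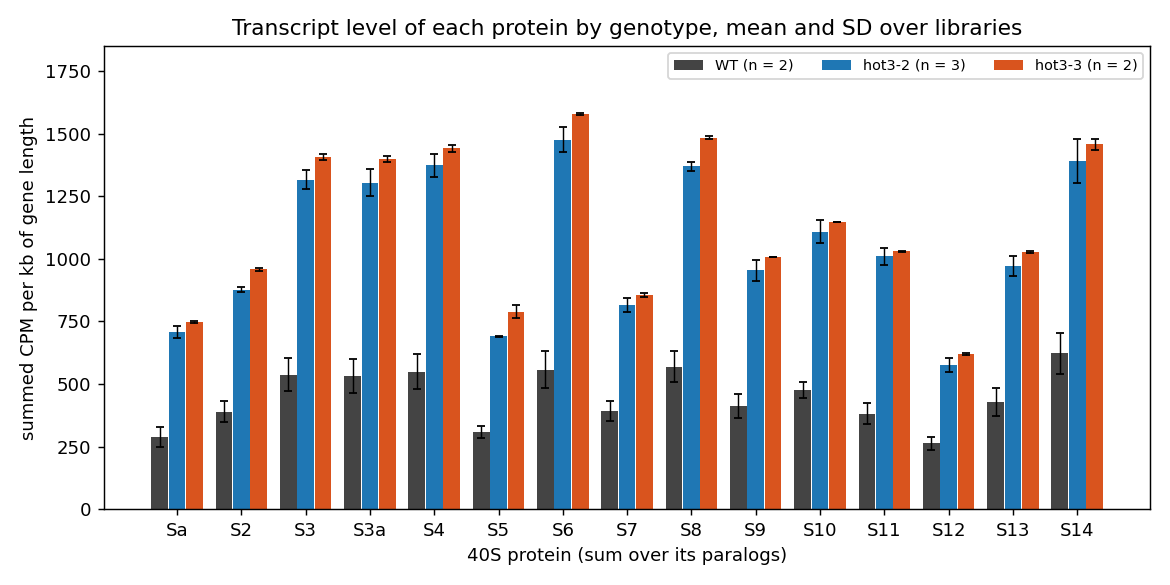
Summed CPM per kilobase of gene length for each 40S protein, as mean (bar) and SD (error bar) over libraries, in WT, hot3-2 and hot3-3. The summed transcript level is higher in both mutants for every family, and S12 is the lowest in each genotype. The error bars of WT and the mutants do not meet.

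The copies of 1 protein did not all rise to the same degree. The share of each paralog in its family was taken from counts per kilobase in each library, and WT libraries were compared with all mutant libraries. In 13 of the 15 families at least 1 paralog had a share that did not overlap between WT and the mutants, 14 paralogs being above and 12 below their WT range. The other 11 of the 37 overlapped. Of the 37 shares tested 22 reached p = 0.0476, unadjusted, which is the smallest value that the exact two-sided permutation test of 2 against 5 libraries can give (21 arrangements). In families of 2 genes the 2 shares mirror each other and count as 1 measurement, and 6 of the 13 families are of this kind. Shares in the larger families are not independent either, because they have a fixed sum. The same measure was not taken for other gene families, so these counts have no background share beside them.

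The largest shift was in S6. RPS6A held 51.9% and 49.4% of S6 in the WT libraries, against 61.2%, 59.3% and 60.1% for hot3-2 and 58.9% in each hot3-3 library (exact permutation p = 0.0476). The mean shift was 9.53 percentage points in hot3-2 and 8.29 in hot3-3. Over all genes a shift of 2 points or more was seen in 19 shares in hot3-2 and 21 in hot3-3.

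In S3a and S13 the copy with the higher mean level per kilobase changed. AT3G04840 held 49.0% and 46.3% of S3a in the WT libraries, with 56.1%, 54.5% and 55.3% for hot3-2 and 54.6% and 54.7% for hot3-3 (exact permutation p = 0.0476). AT4G00100 held 50.02% and 48.5% of S13 in the WT libraries, with 52.1%, 52.9% and 52.5% for hot3-2 and 53.8% and 53.7% for hot3-3 (exact permutation p = 0.0476). The S13 copies were close in WT, where AT4G00100 was the lower by mean level per kilobase but the higher by CPM in both libraries. In the other 13 families the order of the paralogs per length was the same in all 3 genotypes.

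Shifts in S4, S9 and S7 were smaller than that of S6. In S4, AT5G58420 went from a mean of 28.1% ± 1.6 (SD, n = 2) in WT to 32.3% ± 0.3 (n = 3) in hot3-2 and 31.8% ± 0.4 (n = 2) in hot3-3. In S9 the minor copy AT5G39850 went from 3.9% ± 0.6 to 6.5% ± 0.3 and 8.2% ± 0.2. In S7, AT5G16130 went from 45.2% ± 1.0 to 47.7% ± 0.3 and 48.8% ± 0.1.

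The 2 families without a separated share were Sa and S5. P40 held 97.8% to 98.4% of Sa in all 7 libraries. RPS5A held 65.7% and 70.5% of S5 in WT and 61.9% to 66.2% in the mutants, and the ranges met (exact permutation p = 0.0952).

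**Figure D5:**
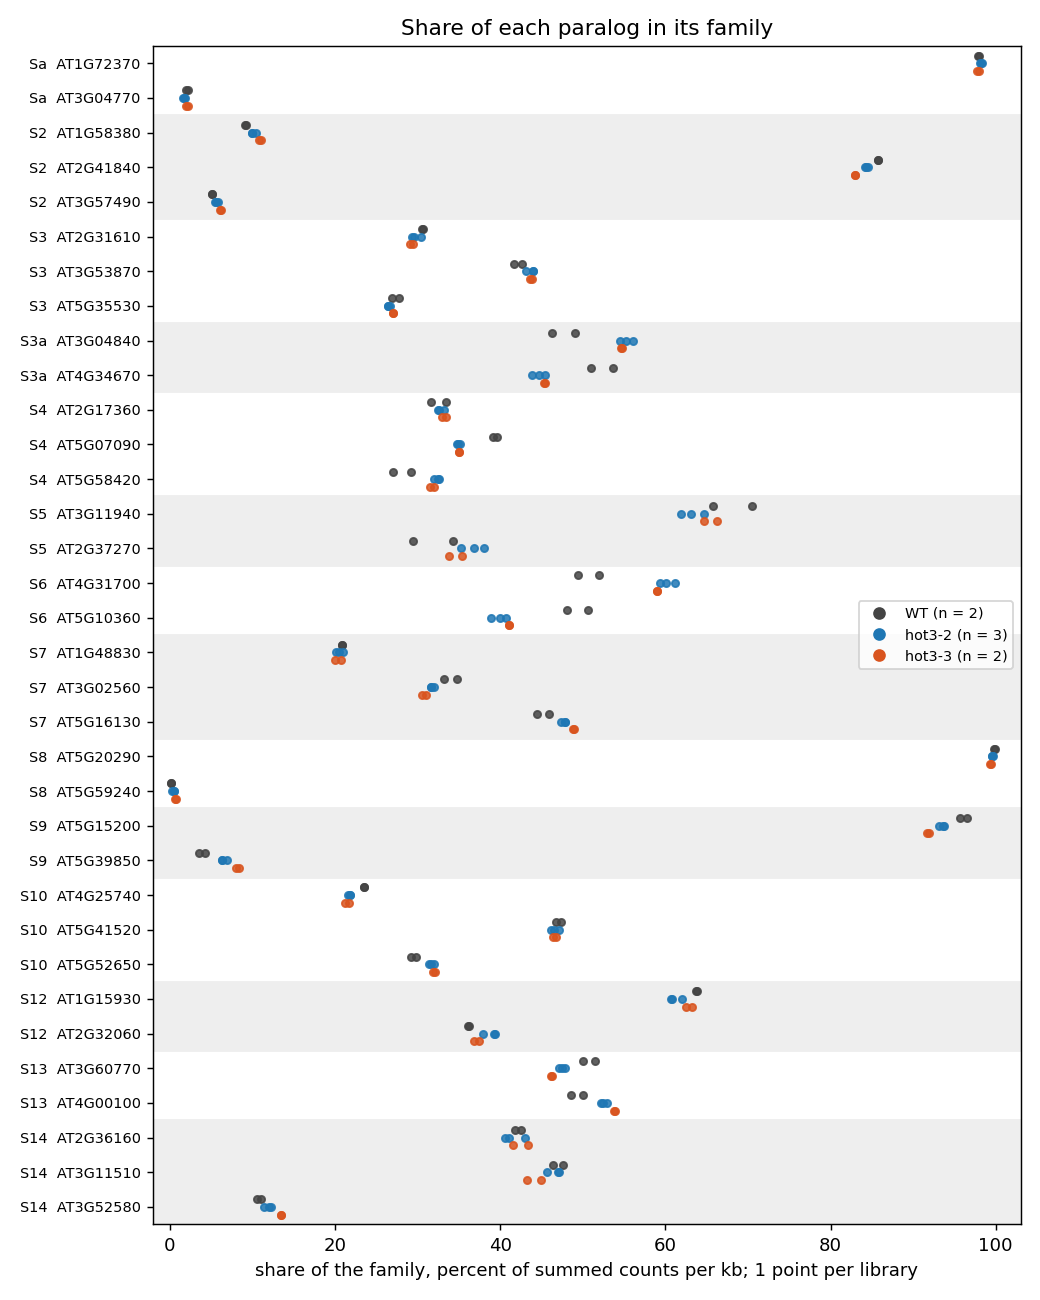
Share of each paralog in the summed counts per kilobase of its family, in percent, for 14 of the 15 families, 1 point for each library (grey WT, blue hot3-2, orange hot3-3). The S6 and S3a points of the mutants stand apart from WT, with mean shifts of 6.99 to 9.53 percentage points, whereas those of Sa stay together.

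Paralogs whose shares shifted encode proteins that are alike but not identical. Over the 32 pairs within families the protein identity was 59.4% to 99.6% with a median of 90.9%, and no pair was identical. RPS6A and RPS6B were 94.8% identical, the S3a proteins 94.3%, the S13 proteins 99.3% and the S4 proteins AT5G07090 and AT5G58420 99.6%, with 1 substitution. The low copies of S8 and S9 were further from their partners, at 80.8% and 88.4%. Between families no pair exceeded 20.6%.

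The 2 alleles were also compared directly. None of the 37 genes was called between hot3-3 and hot3-2, where 1.21% of all tested genes were called, and 5 had an unadjusted p under 0.05 in edgeR, where 25.7% of all tested genes (5352 of 20795) did. DESeq2 also called none. The median difference was 0.03 on the log2 scale, with single genes from −0.08 to 0.70. The standard errors had a median of 0.09, so small differences were not detectable at this replication.

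The 5 genes with an unadjusted p under 0.05, a smaller share than over all tested genes, had higher fitted levels in hot3-3, and none passed the adjusted limit. They were AT5G59240 (0.70 ± 0.20, adjusted p = 0.0566), AT3G04770 (0.31 ± 0.09, adjusted p = 0.0751), AT5G39850 (0.35 ± 0.12, adjusted p = 0.1), RPS5A (0.18 ± 0.06, adjusted p = 0.127) and AT3G57490 (0.20 ± 0.09, adjusted p = 0.184). Of these 4 belong to the 6 genes below 50 CPM in WT, a division made after the values were seen. Those 6 genes, which also include AT1G58380 and AT4G30800, had a median difference of 0.26 between the alleles (from 0.17 to 0.70). The other 31, all at 60.0 CPM or more in WT, had a median of 0.011 (from −0.08 to 0.18).

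By CPM, both hot3-3 libraries lay above all 3 hot3-2 libraries for 25 of the 37 genes, where 29.9% of tested genes did so. This count depended on the scale. With CPM divided further by the TMM scaling factors it was 8 of 37, beside 22.6% of tested genes. Those 8 were the 6 low genes, RPS5A and RPS6B. On neither scale did a gene have both hot3-3 libraries below all hot3-2 libraries.

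The 6 low genes had median log2 fold changes of 1.47 in hot3-2 and 1.68 in hot3-3 against WT, and the 31 others of 1.29 and 1.26. The range of the low genes began at 1.10, inside that of the others, which ran from 1.01 to 1.70 in hot3-2. In 7 families the copy with the highest CPM in WT had the smallest log2 fold change of its family in both alleles, in 4 it had the largest in both, and in the other 4 neither held. The copy with the largest change was thus not always a low one.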

How the data were processed

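RNA was extracted from seedlings and sequenced as directional paired-end libraries. According to the methods of the study, cutadapt removed adapters, STAR aligned the read pairs to TAIR10, and featureCounts tallied, for each gene, proper pairs with a unique position. The submitters' processing notes list cutadapt 4.2, STAR 2.7.10b and featureCounts 2.0.3. The strand setting and annotation release are not given in the sources used here. The deposited values were raw counts per gene, with a gene length in bases, in 1 table for each library. Pairs that map to several copies were therefore not counted.

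Levels are CPM, the count scaled to a library total of 1000000. Counts were tested with edgeR 4.0.16 (R 4.3.3) by quasi-likelihood F tests over all 7 libraries with genotype as factor, filterByExpr (minimum count 10) and TMM factors, with Benjamini-Hochberg adjustment over all 20795 genes. A gene was called at an adjusted p below 0.01 and a log2 fold change of at least 1, the study's threshold. The standard errors given with log2 fold changes were derived from the test. Each is the size of the log2 fold change divided by the square root of its F statistic. DESeq2 1.42.0 was an alternative. The fit was tested on simulated data. Beside the replicate block, alternatives were RLE factors, library totals, no count filter and only the compared genotypes. Others were an adjusted p below 0.05 with no fold limit, and leaving out each library.

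Gene models came from RefSeq (TAIR10.1), whose exonic length equalled the deposited length for all 38 genes and 99.4% of 27445 matched loci. Motifs and windows of 150 bases were searched in that genome. Proteins were translated from it and aligned globally with Biopython 1.88 (BLOSUM62). Of the 38 genes, 1 is included in counts, medians and sums but is not reported here by itself. The genes and lists were chosen with earlier results of these data known. Values in every library are given for the most abundant paralog of each family in WT, for the one with the largest mean log2 fold change, and for genes called in 1 or no allele.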

Additional observations from a re-analysis of the deposited data

How the results depend on the processing

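Over the alternatives tried, the number of the 37 genes called higher stayed between 33 and 37 in both alleles, and no gene was called between the alleles under any of them. Leaving out 1 library at a time gave 33 to 37 genes in hot3-2 and 33 to 37 in hot3-3, 14 to 15 families in each, and 13 to 14 families with a separated paralog share. It gave median log2 fold changes of 1.16 to 1.41 in hot3-2 and 1.21 to 1.43 in hot3-3, both ends being set by the WT libraries. The hot3-3 median of 1.35 moved by more than the SD of the 2 hot3-3 library medians (0.0065), which leaves out the WT spread. It was 1.34 with RLE size factors, in DESeq2 and with only the compared genotypes, and 1.37 with library totals alone. All tested genes shifted by a median of −0.009 with RLE, −0.009 in DESeq2 and 0.016 with library totals. The cause was not tested. Of 1036 values for single genes under the alternatives, 1022 kept their direction and side of the threshold, 12 fell below the limit, 2 passed it, and none changed direction.

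The replicate numbers are shared between genotypes. Each library's deviations from its genotype mean (log2 CPM) were correlated between genotypes. Same-numbered libraries gave 0.03 to 0.25, and different-numbered ones −0.25 to 0.05. In a genotype of 2 libraries the deviations mirror each other, so these values are not independent. The same-numbered values did not all exceed 0.1, so the numbers were not taken to pair the samples. With the replicate block the calls were 37 and 36 genes and 0 between the alleles. Restricting the motif search to the 250 bases before the start lowered the genes with a telobox from 20 to 8. The 12 genes that dropped out had their teloboxes only after the start or reaching across it. Depth limits mainly AT5G59240, at 11 and 18 counts in WT.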
